A study of Rattus norvegicus with 10 samples.

Results

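The unfolded protein response and the integrated stress response were followed in rat liver through 10 genes, taken by their symbols: Hspa5, Sdf2l1, Dnajb9, Herpud1 and Xbp1 for protein folding and disposal in the endoplasmic reticulum (ER), and Atf4, Ddit3, Trib3, Asns and Chac1 for the arm that runs through the transcription factor ATF4. A probe counted as a member when the accession printed for it on the array belongs to a member symbol. Of the 10 genes, 8 matched a probe, with 11 probes in all, out of 13837 genes named on the array, and Xbp1 and Trib3 matched none and were not analysed here. The naming left 23500 of 41012 probes without a gene, and probes of Xbp1 and Trib3 may be among those. Only probes clearly brighter than background throughout at least 1 of the groups were tested, which left 22991 of 41012 probes and 10 of the 11 member probes, at least 1 for each of the 8 genes.

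The livers came from 10 male Sprague Dawley rats, with 1 array per rat. Sulfur mustard (SM), a bifunctional alkylating agent, was given to 4 rats as a single subcutaneous dose of 3.5 mg/kg (0.7 of the LD50) in propylene glycol, and 3 control rats received the solvent. In the SM + MSTF group, 3 rats given that SM dose also received MSTF, a mixture of salvianolic acids of Salvia miltiorrhiza and total flavonoids of Anemarrhena asphodeloides, at 120 mg/kg into the stomach 1 h later. All livers were taken 24 h after SM, and no group received MSTF without SM. Values are log2 signals of one-colour Agilent arrays after quantile normalization. Between 51.9% and 61.4% of the probes on an array stood well above background. The 8 hepatocyte markers examined were all measured, with a summed signal of 1749000 to 1914000 on every array. Quantile normalization brings the brightest probes to like values on every array, so this sum says little of hepatocyte content. The arrays lay on 3 slides. All 4 SM arrays filled a slide of their own, the 3 controls shared a slide with SM + MSTF replicate 3, and SM + MSTF replicates 1 and 2 lay on the remaining slide, so that SM and its slide cannot be told apart. In whole liver, fewer cells of a type and less RNA per cell cannot be told apart either.

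The ER folds secreted and membrane proteins, and the hepatocyte, which secretes most plasma proteins, carries a heavy folding load. When unfolded proteins accumulate, the sensors ATF6 and IRE1 raise the transcription of chaperones and of the machinery that returns misfolded proteins to the cytosol for degradation, while the sensor PERK phosphorylates the translation factor eIF2alpha. That phosphorylation, which GCN2, PKR and HRI also carry out on amino acid shortage, viral RNA or heme shortage, slows general translation but favours translation of ATF4, whose targets serve amino acid supply, redox balance and, through CHOP (Ddit3), cell death. The study asked which genes SM alters in the liver and which of these differences MSTF prevents. For these genes the comparison is between the chaperone arm and the ATF4 arm over the 3 groups. The chaperone arm stands here for the members of ER folding and disposal, so it includes Herpud1, which is not a chaperone.

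Chaperone genes and ATF4 targets are known for different promoter elements, so the RefSeq promoter windows (250 bases before to 50 after the start of the gene, assembly GRCr8) were searched on both strands for 4 letter patterns. The ER stress element ERSE, bound by ATF6 with NF-Y, was taken as CCAAT and CCACG with 9 bases between them, and ERSE-II as ATTGG and CCACG with 1 base between them. The unfolded protein response element was TGACGTGG, and the C/EBP-ATF response element (CARE), bound by ATF4, was TGATGNAA. ERSE was found in 0.0657% of 33469 promoters, ERSE-II in 0.0508%, the unfolded protein response element in 0.595% and CARE in 3.98%. Among the members, ERSE stood in Hspa5 and Xbp1, ERSE-II in Herpud1, and CARE in Herpud1, Chac1 and Trib3. Dnajb9, Sdf2l1, Atf4, Ddit3 and Asns held none of these letters in this window, which says nothing of elements written otherwise or placed elsewhere. Printed here is a chaperone promoter whose only match was ERSE (Hspa5, chr3:38452766-38453065, plus strand). With it are the member that holds both kinds of element (Herpud1, chr19:10614658-10614957, minus strand) and an ATF4 target (Chac1, chr3:126795881-126796180, plus strand). By the brightest probes, Hsp90b1 differed most among the other ER chaperones in SM versus control. Its promoter (chr7:23012244-23012543, minus strand) is shown beside those of the members, though Hsp90b1 is not a member. Each is written 5′ to 3′ on the strand of its gene, with the matched letters in capitals.
Hspa5: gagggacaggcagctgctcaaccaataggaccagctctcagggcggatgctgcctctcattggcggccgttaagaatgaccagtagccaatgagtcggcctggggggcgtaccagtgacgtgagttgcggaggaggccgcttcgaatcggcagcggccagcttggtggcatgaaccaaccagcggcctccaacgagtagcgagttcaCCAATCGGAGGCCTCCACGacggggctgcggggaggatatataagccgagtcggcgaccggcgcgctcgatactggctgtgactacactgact
Herpud1: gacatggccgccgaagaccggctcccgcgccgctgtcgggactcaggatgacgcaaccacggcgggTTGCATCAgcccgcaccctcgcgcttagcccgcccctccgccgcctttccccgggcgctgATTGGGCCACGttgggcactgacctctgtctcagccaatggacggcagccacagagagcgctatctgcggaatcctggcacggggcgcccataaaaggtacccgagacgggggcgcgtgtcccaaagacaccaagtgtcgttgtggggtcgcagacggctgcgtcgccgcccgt
Chac1: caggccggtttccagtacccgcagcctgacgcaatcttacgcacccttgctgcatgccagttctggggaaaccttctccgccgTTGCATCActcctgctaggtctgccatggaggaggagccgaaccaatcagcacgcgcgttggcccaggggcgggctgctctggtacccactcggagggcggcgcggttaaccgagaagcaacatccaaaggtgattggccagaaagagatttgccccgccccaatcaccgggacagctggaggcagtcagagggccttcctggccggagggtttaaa
Hsp90b1: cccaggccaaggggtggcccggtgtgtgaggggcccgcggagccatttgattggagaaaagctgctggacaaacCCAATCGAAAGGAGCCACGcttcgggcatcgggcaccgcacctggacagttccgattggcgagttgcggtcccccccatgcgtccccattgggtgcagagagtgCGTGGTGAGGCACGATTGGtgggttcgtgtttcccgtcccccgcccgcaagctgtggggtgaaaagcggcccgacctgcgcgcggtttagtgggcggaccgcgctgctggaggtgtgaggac
In Hspa5 the match covers bases -43 to -25 from the start site, and in Herpud1 ERSE-II covers -124 to -114 while CARE, on the opposite strand, covers -184 to -177. The CARE of Chac1 covers -167 to -160, also on the opposite strand. Hsp90b1 holds 2 ERSE matches, at -176 to -158 and, on the opposite strand, at -72 to -54. Among the list genes that are not members, ERSE stood in 5 of 11 promoters of other ER chaperones (Calr, Canx, Creld2, Dnajc3 and Hsp90b1), and CARE in 7 of 11 promoters of aminoacyl-tRNA synthetases and in 0 of 11 of other ER chaperones. A match is a description of the letters, and no binding was measured.

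None of the 10 member probes passed the test in any of the 3 comparisons. The test was limma with Benjamini-Hochberg adjustment over all 22991 probes, and a probe was called when it differed by 1.5-fold or more with its adjusted p under 0.05. In SM versus control 0 of 10 member probes were called where 2.41% of all probes were, and between SM + MSTF and SM 0 of 10 where 1.26% were. Between SM + MSTF and control no probe of the array was called (0%). At an unadjusted p under 0.05, 1 of 10 member probes passed between SM and control (background 16.4%), 2 of 10 between SM + MSTF and control (9.54%) and 4 of 10 between SM + MSTF and SM (15.9%). The arrays of SM and control did not overlap for 2 of 10 member probes (background 18.0%), those of SM + MSTF and control for 2 of 10 (15.4%) and those of SM + MSTF and SM for 4 of 10 (14.7%). The last 4 were both probes of Dnajb9 and both probes of Herpud1. The methods' t-test, with an unadjusted p under 0.05 and 1.5-fold, was run only on the brightest probe of each gene. By it 1 member was called, Herpud1 in SM + MSTF versus SM, and none remained after Benjamini-Hochberg adjustment. The second probes of Dnajb9 and Herpud1 were not put to that t-test. The plot of signals by array shows every member, and the plot of fitted fold changes shows how wide the intervals are.

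**Figure D1:**
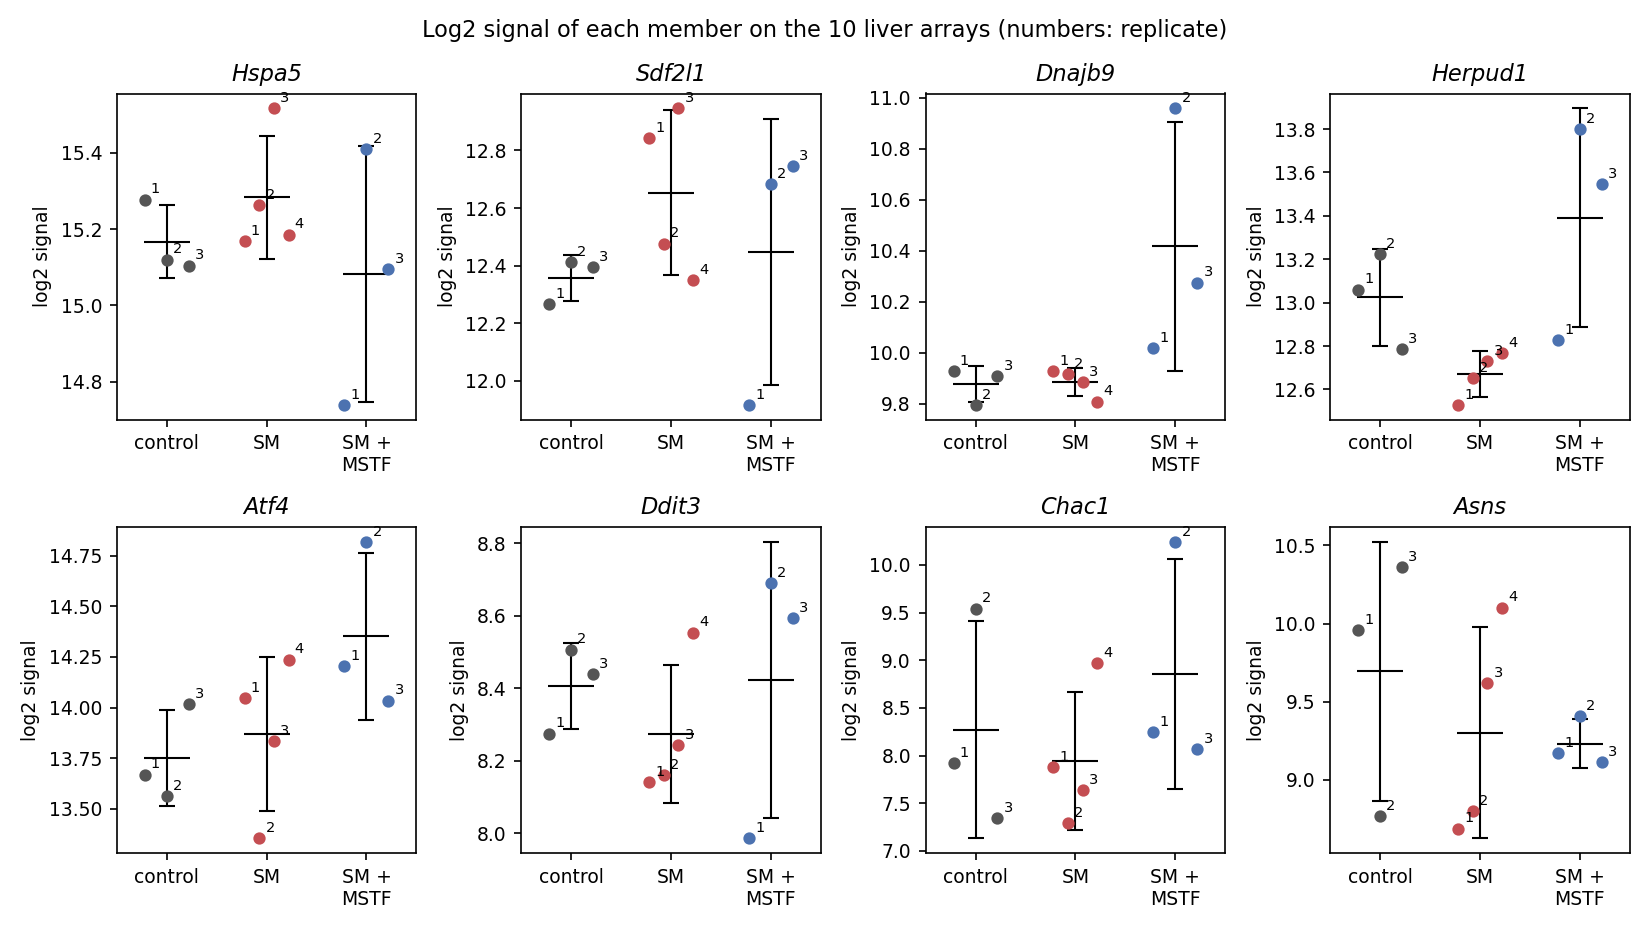
Log2 signal (y axis, a separate scale in each panel) of the 8 measured members on the 3 control, 4 SM and 3 SM + MSTF arrays, with 1 point per rat numbered by replicate, a bar for the group mean and a line for its SD. For Dnajb9 and Herpud1 the 3 SM + MSTF points lie above all 4 SM points, and SM + MSTF replicate 2 is the highest of all 10 arrays for 5 of the 8 genes.

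Hspa5 encodes BiP, the main ER chaperone and the protein that holds the stress sensors inactive. Its log2 signal was 15.28, 15.12 and 15.10 in the controls, 15.17, 15.26, 15.52 and 15.19 with SM, and 14.74, 15.41 and 15.10 with SM + MSTF. The 3 groups overlapped, with the highest value on SM replicate 3 and the lowest on SM + MSTF replicate 1. The log2 difference of SM from control was 0.12 (SE 0.16, 95% interval -0.24 to 0.47, adjusted p = 0.768 by limma), so a rise or fall of 1.5-fold lies outside this interval. The difference of SM + MSTF from SM was -0.20 (interval -0.55 to 0.15, adjusted p = 0.536), and again 1.5-fold lies outside it.

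Sdf2l1 encodes an ER-resident partner of BiP and its J-domain proteins. Its log2 signal was 12.27, 12.41 and 12.40 in the controls, 12.84, 12.48, 12.95 and 12.35 with SM, and 11.92, 12.68 and 12.75 with SM + MSTF. SM replicates 1 and 3 were the highest arrays and SM + MSTF replicate 1 the lowest, and SM replicate 3 and SM + MSTF replicate 1 were the extremes for Hspa5 as well. SM differed from control by 0.30 on the log2 scale (SE 0.22, interval -0.19 to 0.78, adjusted p = 0.552 by limma), and SM + MSTF differed from SM by -0.20 (interval -0.69 to 0.28, adjusted p = 0.655). Without SM + MSTF replicate 1 the latter was 0.06, and for Hspa5 it was -0.03.

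Herpud1 encodes an ER membrane protein that helps assemble the ubiquitin ligase complex for misfolded ER proteins. The brighter of its 2 probes read 13.06, 13.22 and 12.79 in the controls, 12.53, 12.65, 12.73 and 12.77 with SM, and 12.83, 13.80 and 13.55 with SM + MSTF. All 4 SM arrays lay below all 3 controls and below all 3 SM + MSTF arrays, though the closest values, SM replicate 4 and control replicate 3, were near each other. SM + MSTF exceeded SM by 0.72 on the log2 scale, or 1.65-fold (SE 0.21, interval 0.25 to 1.19, unadjusted p = 0.00685, adjusted p = 0.154 by limma). The other probe gave the same size of difference, 0.72 (SE 0.22, adjusted p = 0.178), from 10.08 to 10.44 with SM to 10.47 to 11.49 with SM + MSTF. SM differed from control by -0.35 (adjusted p = 0.452) and -0.27 (adjusted p = 0.602) on these probes, and SM + MSTF from control by 0.37 (adjusted p = 0.634) and 0.45 (adjusted p = 0.587). The value depended on a single library: without SM + MSTF replicate 1, Herpud1 passed the test against SM, at 1.00 (adjusted p = 0.0321), and without SM + MSTF replicate 2 the difference was 0.52.

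Dnajb9 encodes ERdj4, a J-domain partner of BiP that serves ER-associated degradation and restrains IRE1. Its brighter probe read 9.93, 9.79 and 9.91 in the controls, 9.93, 9.92, 9.89 and 9.81 with SM, and 10.02, 10.96 and 10.27 with SM + MSTF. The control and SM arrays were interleaved within a narrow range, and all 3 SM + MSTF arrays lay above both. The second probe read 9.89, 9.98 and 10.07 in the controls, 9.60, 9.50, 9.42 and 9.56 with SM, and 9.87, 10.77 and 10.29 with SM + MSTF. On this probe the SM arrays lay below all others, so the probes differed on SM versus control, at 0.01 (adjusted p = 0.988) against -0.46 (unadjusted p = 0.0298, adjusted p = 0.239 by limma). In SM + MSTF versus SM both lay on the same side, at 0.53 (SE 0.19, adjusted p = 0.225) and 0.79 (SE 0.18, unadjusted p = 0.00149, adjusted p = 0.0724), the latter the smallest adjusted p of any member. SM + MSTF differed from control by 0.54 (unadjusted p = 0.0232, adjusted p = 0.460) and 0.33 (adjusted p = 0.613). Without SM + MSTF replicate 2 the difference of the brighter probe from SM was 0.26.

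Because the SM arrays filled a slide, the differences of Herpud1 and Dnajb9 from SM are also differences between slides. The only comparison within a slide is that of SM + MSTF replicate 3 with the 3 controls, a single rat. On that slide Herpud1 in SM + MSTF replicate 3 exceeded the control mean by 0.52 and the highest control by 0.32, and Dnajb9 exceeded them by 0.40 and 0.35 on the brighter probes. Sdf2l1 on the same array exceeded them by 0.39 and 0.33, and Hspa5 was 0.07 under the control mean (a log2 difference of -0.07). B cell and plasma cell markers, 3 measured of 8, had their highest summed signal on that array, 453.9 against 228.6 to 288.1 in the controls. Mzb1 (7.01) and Pou2af1 (7.97) were highest there of all arrays, while Cd79b (6.21) lay within the range of the controls. In SM + MSTF versus SM, macrophage and Kupffer cell markers lay on the same side as Herpud1 and Dnajb9. All 7 markers measured of 8 were higher, 4 of 7 at an unadjusted p under 0.05 by limma and none called. All 7 were lower in SM than in control, as were both probes of Herpud1 and the dimmer probe of Dnajb9. The brighter probe of Dnajb9 lay at 0.01 there. The summed signal of these markers was 51800 to 75190 in the controls, 34790 to 62440 with SM and 53730 to 70330 with SM + MSTF. On SM + MSTF replicates 1, 2 and 3 it was 53730, 68090 and 70330. Clec4f, the brightest of these markers, made up most of that sum. Clec4f, Cd68 and Vsig4 were lowest on replicate 1 of these arrays, as the sum was. Marco (11.38, 11.16 and 10.73), Adgre1, Cd163 and Csf1r ran the other way, highest on replicate 1 and lowest on replicate 3. The part of macrophages and Kupffer cells, or of B cells and plasma cells, in the values of Herpud1, Dnajb9 and Sdf2l1 was not tested.

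**Figure D2:**
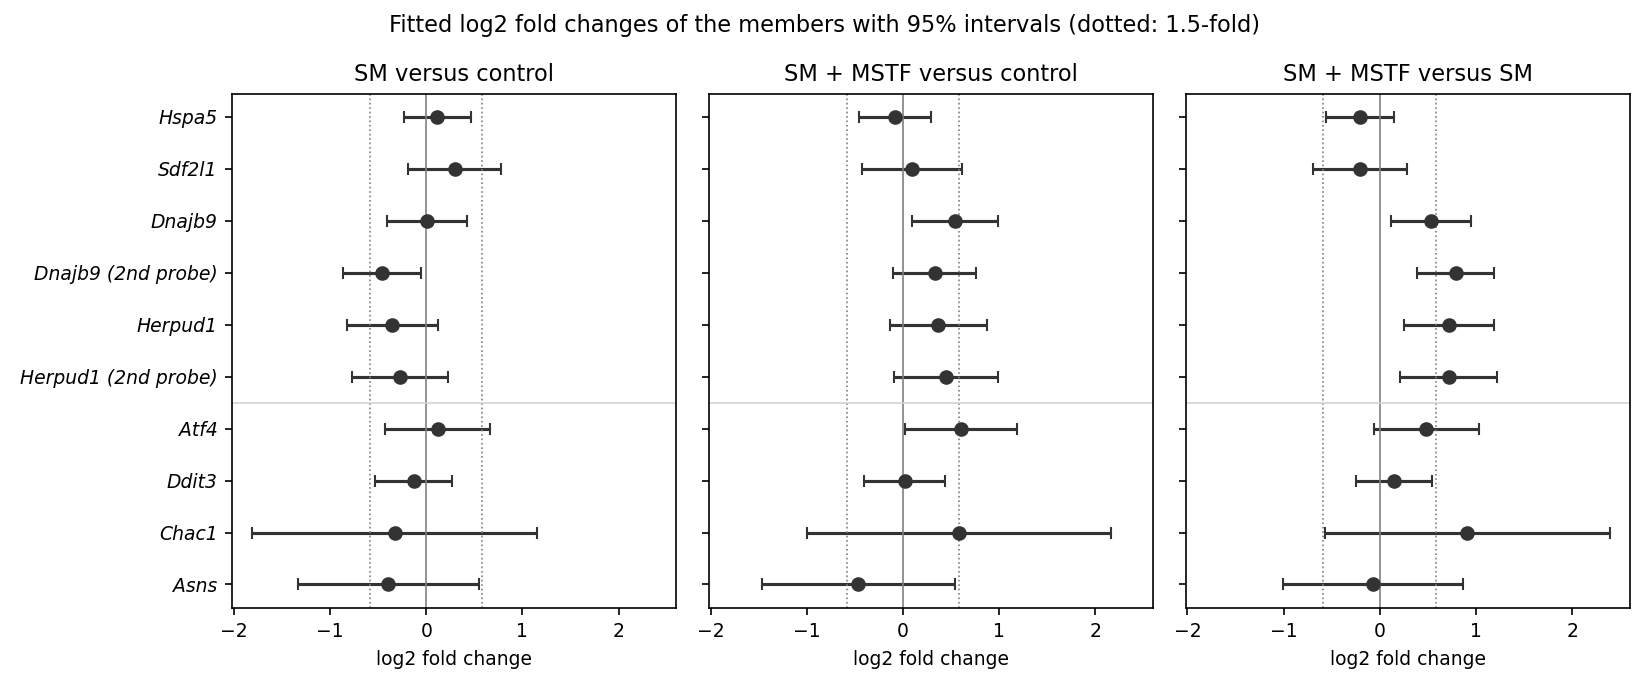
Fitted log2 fold change (x axis) of the 10 tested member probes in the 3 comparisons, with 95% intervals from limma, a solid line at 0 and dotted lines at 1.5-fold. Of the 10, the 4 probes of Dnajb9 and Herpud1 have intervals above 0 in SM + MSTF versus SM, and no probe passed the adjusted test in any panel.

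Atf4 encodes the transcription factor at the centre of the integrated stress response, which is regulated mostly by translation, so its mRNA does not report its activity. Its log2 signal was 13.67, 13.56 and 14.02 in the controls, 14.05, 13.35, 13.83 and 14.24 with SM, and 14.20, 14.82 and 14.03 with SM + MSTF. All 3 SM + MSTF arrays lay above the controls, the lowest of them by 0.02, while the SM arrays overlapped both other groups. SM + MSTF differed from control by 0.60 on the log2 scale, or 1.52-fold (SE 0.26, interval 0.02 to 1.19, unadjusted p = 0.0440, adjusted p = 0.510 by limma), and from SM by 0.48 (adjusted p = 0.355). SM differed from control by 0.12 (interval -0.43 to 0.66, adjusted p = 0.858). Without SM + MSTF replicate 2 the difference of SM + MSTF from control was 0.37.

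Ddit3 encodes CHOP, the factor that links prolonged ER stress to cell death. Its log2 signal was 8.28, 8.51 and 8.44 in the controls, 8.14, 8.16, 8.24 and 8.55 with SM, and 7.99, 8.69 and 8.59 with SM + MSTF. The 3 groups overlapped throughout. SM differed from control by -0.13 (SE 0.18, interval -0.53 to 0.26, adjusted p = 0.766 by limma) and SM + MSTF from control by 0.02 (interval -0.41 to 0.44, adjusted p = 0.986), so 1.5-fold in either direction lies outside both intervals.

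Chac1, which encodes a glutathione-degrading enzyme and is a target of ATF4 and CHOP, varied most of the 8 genes, over 2.95 on the log2 scale. Its tested probe read 7.92, 9.54 and 7.35 in the controls, 7.88, 7.29, 7.64 and 8.97 with SM, and 8.25, 10.24 and 8.07 with SM + MSTF. The high arrays were 1 in each group: control replicate 2, SM replicate 4 and SM + MSTF replicate 2. A second, dim probe of Chac1, which was not tested, lay well above background on those 3 arrays and on no other. The spread between rats therefore exceeded the differences between groups, which were -0.33 for SM versus control (SE 0.66, adjusted p = 0.855 by limma), 0.58 for SM + MSTF versus control (adjusted p = 0.817) and 0.91 for SM + MSTF versus SM (interval -0.57 to 2.39, adjusted p = 0.506). Without control replicate 2 the first of these was 0.31, and without SM + MSTF replicate 2 the others were -0.11 and 0.21.

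Asns encodes asparagine synthetase, a classical target of ATF4 under amino acid shortage. Its log2 signal was 9.96, 8.77 and 10.36 in the controls, 8.69, 8.80, 9.62 and 10.10 with SM, and 9.17, 9.41 and 9.11 with SM + MSTF. The controls alone spanned nearly the whole range, and SM replicate 4 and SM + MSTF replicate 2 were the highest of their groups, as for Chac1. Control replicate 2, by contrast, was the lowest control for Asns and the highest for Chac1. SM differed from control by -0.39 (SE 0.42, interval -1.33 to 0.54, adjusted p = 0.698 by limma), and SM + MSTF from SM by -0.07 (adjusted p = 0.944). The former was -0.86 without control replicate 2 and -0.06 without control replicate 3.

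The arms were compared by the median over their 4 measured genes, with no test. Between SM and control the median log2 difference was 0.06 in the chaperone arm and -0.23 in the ATF4 arm, against 0.03 over all probes tested. With each array left out in turn, the chaperone arm ran from 0.02 to 0.10 and the ATF4 arm from -0.44 (without SM replicate 4) to -0.03 (without control replicate 2). SM + MSTF differed from control by medians of 0.23 and 0.30 in the same order, and from SM by 0.17 and 0.32, while the medians over all probes were 0.0046 and -0.02. These medians join unlike members: in SM + MSTF versus SM the chaperones Hspa5 and Sdf2l1 lay at -0.20 each and Herpud1 and Dnajb9 at 0.72 and 0.53. SM versus control shares its control arrays and its SM arrays with the other comparisons. By array, the ATF4 arm ran from -0.65 on SM replicate 2 to 0.45 on SM replicate 4 within the SM group, while the chaperone arm ran only from -0.04 to 0.18 there. In the SM + MSTF group both arms had their lowest array in replicate 1 (-0.31 and -0.22) and their highest in replicate 2 (0.55 and 0.68). SM + MSTF replicate 2 was the highest of the 3 SM + MSTF arrays for 7 of the 8 genes, all but Sdf2l1, and the highest of all 10 arrays for Atf4, Chac1, Ddit3, Dnajb9 and Herpud1. Without that rat the medians of the ATF4 arm in SM + MSTF were -0.11 against control and 0.11 against SM, and those of the chaperone arm were 0.07 and -0.03.

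**Figure D3:**
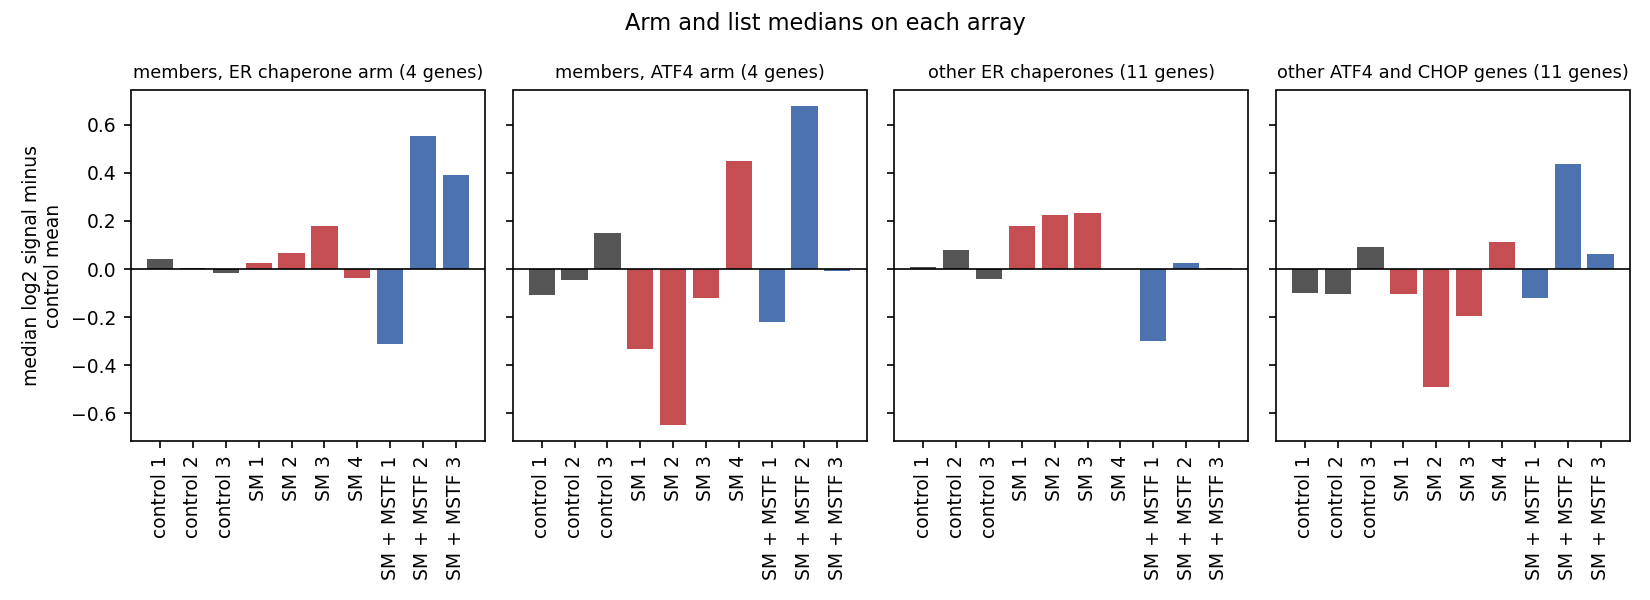
Median over genes of the log2 signal minus the control mean (y axis) on each of the 10 arrays, for the 2 member arms (4 genes each) and for the lists of other ER chaperones and of other ATF4 and CHOP response genes (11 genes each). SM + MSTF replicate 2 is the highest array in both member arms and in the list of ATF4 and CHOP genes, at 0.55, 0.68 and 0.44, but not among the other ER chaperones, at 0.03.

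The other genes of both responses were described in 9 lists, by 1 probe per gene, the brightest. By that probe, no gene of these lists passed the adjusted test in any comparison. At an unadjusted p under 0.05 by limma, the lists held values in both directions. Of 10 genes of amino acid synthesis, 1 was higher and 4 lower at that level between SM and control, and 0 and 3 between SM + MSTF and SM. Of 11 heat shock genes the counts were 2 and 3, then 2 and 1, and of 11 aminoacyl-tRNA synthetases 1 and 2, then 0 and 0. Among all probes, 9.28% were higher and 7.10% lower at that level between SM and control, and 6.23% higher and 9.70% lower between SM + MSTF and SM. Whatever their p, 55.9% of all probes lay higher in SM than in the controls and 46.4% lay higher in SM + MSTF than in SM.

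The sensors gave 1 value at that level. Atf6, the sensor that is itself cut into a transcription factor, read 10.76, 10.68 and 10.64 in the controls, 11.16, 10.93, 11.18 and 10.88 with SM, and 10.85, 10.78 and 10.81 with SM + MSTF. All 4 SM arrays lay above all 6 others, with a log2 difference from control of 0.34 (SE 0.10, unadjusted p = 0.00701, adjusted p = 0.117 by limma) and of SM + MSTF from SM of -0.22 (adjusted p = 0.324). Eif2ak3, which encodes PERK, was dim, at 4.51 to 5.32 over all arrays, and its difference of SM from control was 0.08 (adjusted p = 0.868). Ern1, which encodes IRE1, matched none of the named probes and was not analysed here.

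The ER chaperones other than the members were higher in SM than in control for 10 of 11 genes, with a median log2 fold change of 0.14, and 2 of the 11 (Hsp90b1 and Fkbp11) had an unadjusted p under 0.05. In SM + MSTF versus SM, 10 of 11 were lower, with a median of -0.21, and 3 (Calr, Hyou1 and Fkbp11) had such a p. Both counts share the SM arrays, and 0 were called in either. With each array left out in turn, which was added after the data were seen, 9 to 10 of the 11 were higher in the first comparison and 10 to 11 lower in the second, where the median ran from -0.31 to -0.18. By array, the median over the list, as a log2 difference from the control mean, was 0.18, 0.23, 0.23 and -0.0009 on the 4 SM arrays and -0.30, 0.03 and 0.0049 on the 3 SM + MSTF arrays. SM replicate 4 and SM + MSTF replicates 2 and 3 thus lay near the control mean, the other 3 SM arrays above it and SM + MSTF replicate 1 below it. Erythroid markers lay on the same sides: all 4 measured of 6 were higher in SM than in control (median 0.91, 2 at an unadjusted p under 0.05) and all 4 were lower in SM + MSTF than in SM (median -0.28), with none called. Their summed signal was 5342, 15640 and 9474 in the controls, 7039, 22390, 22100 and 11140 with SM, and 7766, 18080 and 13270 with SM + MSTF. By array it did not follow the chaperones throughout: SM replicate 1, with a chaperone median of 0.18, lay below control replicates 2 and 3. Bile duct markers, 2 measured of 4, lay on the same sides as well (medians 0.22 and -0.10), with none called. The part of erythroid or bile duct cells in the values of the chaperones was not tested. Hsp90b1, which encodes GRP94, read 12.99, 12.85 and 12.80 in the controls, 13.23, 13.27, 13.76 and 13.20 with SM, and 12.55, 13.22 and 13.10 with SM + MSTF. Its SM arrays lay above the controls, by 0.48 on the mean log2 scale (SE 0.19, adjusted p = 0.232 by limma), and a second probe gave 0.59 (adjusted p = 0.193). For Calr, the calcium-binding lectin chaperone calreticulin, all 3 SM + MSTF arrays (13.74, 14.38 and 14.25) lay below all 4 SM arrays (14.42 to 14.83), with a log2 difference of -0.51 (adjusted p = 0.179). Hyou1, a nucleotide exchange factor of BiP, differed by -0.47 in the same comparison (adjusted p = 0.250), with overlapping arrays. In SM versus control its brighter probe lay at 0.19 (adjusted p = 0.644 by limma) and its dimmer probe at 0.63 (adjusted p = 0.161).

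The enzymes of oxidative folding included Pdia4, a disulfide isomerase, at 0.48 in SM versus control (unadjusted p = 0.0208, adjusted p = 0.202 by limma) and -0.43 between SM + MSTF and SM, and Erp29, a thioredoxin-fold chaperone, at 0.39 (adjusted p = 0.199) and -0.34. Of 9 genes, 6 lay higher with SM than in the controls and 8 lay lower in SM + MSTF than in SM, or 4 without SM + MSTF replicate 1. In ER-associated degradation and translocation, 14 of 21 genes were higher in SM than in control with a median of 0.07; neither that count nor the 6 of 9 lies far from the share of all probes. Selenos, a membrane selenoprotein of the retrotranslocation complex, lay at 0.34, Ssr1, a translocon-associated protein, at 0.26 and Edem2, a mannose-trimming lectin, at 0.22 (adjusted p = 0.239, 0.193 and 0.188). Between SM + MSTF and SM, Ssr3 lay at -0.29 and Ube2g2, a ubiquitin-conjugating enzyme of this pathway, at 0.35 (adjusted p = 0.216 and 0.285).

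**Figure D4:**
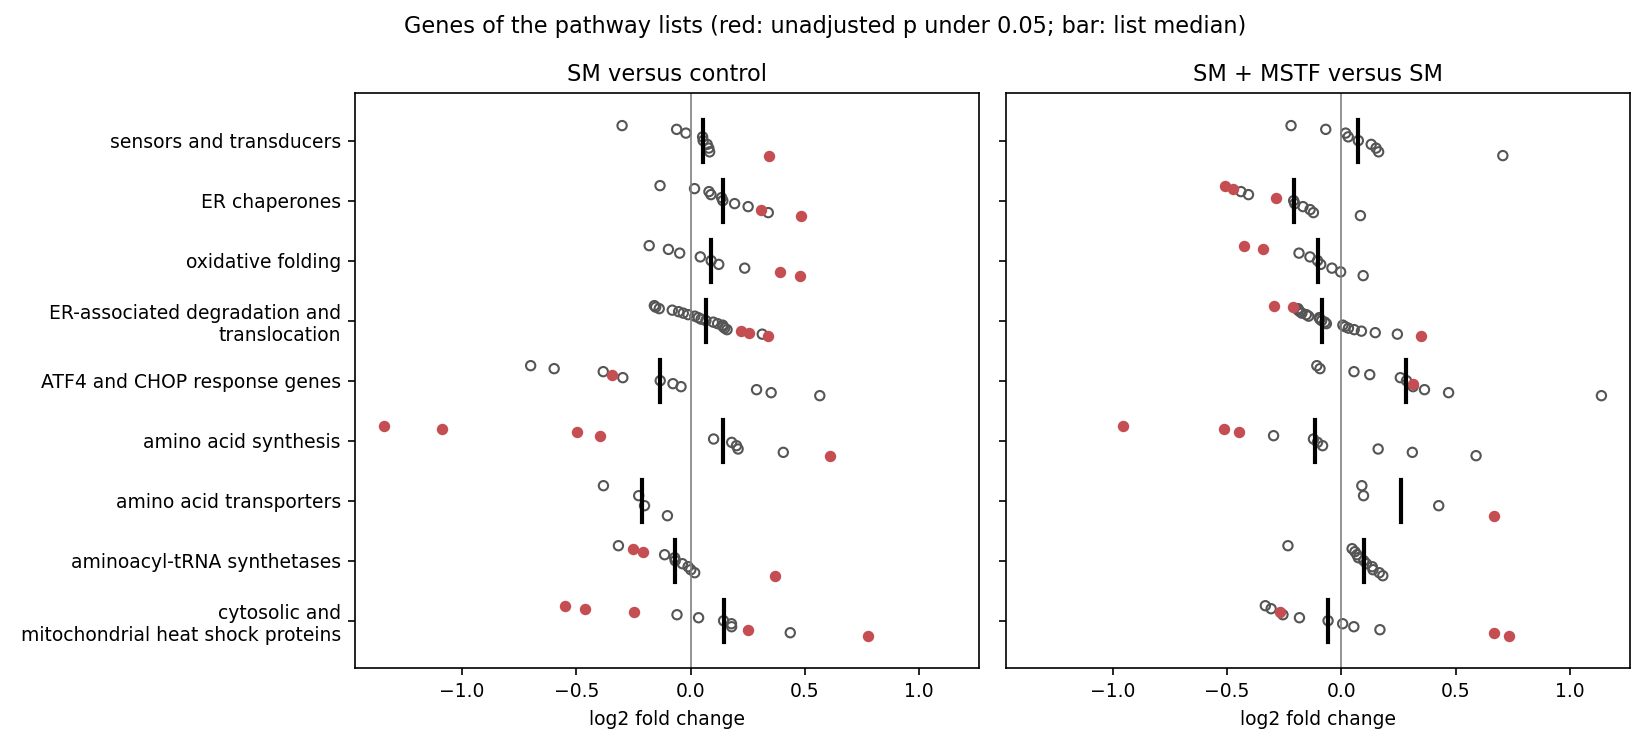
Log2 fold change (x axis) of the genes of 9 pathway lists between SM and control (left) and between SM + MSTF and SM (right), which share the SM arrays, with 1 point per gene, filled red where the unadjusted limma p was under 0.05, and a bar at the list's median. The medians of the ER chaperones are 0.14 and -0.21 and those of the ATF4 and CHOP genes -0.13 and 0.28, and no point passed the adjusted test.

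The other ATF4 and CHOP response genes were lower in SM than in control for 8 of 11, with a median log2 fold change of -0.13, and higher in SM + MSTF than in SM for 9 of 11, with a median of 0.28. With each array left out in turn these counts ran from 6 to 8 and from 7 to 10. Only Cebpg, a dimerization partner of ATF4, had an unadjusted p under 0.05 in these comparisons, at -0.34 (adjusted p = 0.229 by limma) and 0.31 (adjusted p = 0.290), and its second, dimmer probe lay at 0.05 and 0.15. This list and the ATF4 member arm had the same sign in both of these comparisons, opposite to that of the other ER chaperones. The chaperone member arm, at 0.06 and 0.17, shared the sign of the other ER chaperones in SM versus control only. By array, as a log2 difference from the control mean, the list's median was -0.10, -0.10 and 0.09 in the controls. With SM it was -0.10, -0.49, -0.19 and 0.11. Without SM + MSTF replicate 2 the list's median in SM + MSTF versus SM was 0.10. On SM + MSTF replicate 2 the list lay 0.44 above the control mean, and on replicates 1 and 3 at -0.12 and 0.06.

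Amino acid synthesis, which ATF4 serves, gave values in both directions. Mthfd2, of mitochondrial one-carbon metabolism, lay at -1.34 in SM versus control (unadjusted p = 0.0052, adjusted p = 0.101 by limma), from 6.85, 5.84 and 6.98 in the controls to 4.55, 4.92, 5.39 and 6.00 with SM. Only SM replicate 4 reached the range of the controls. Phgdh, the first enzyme of serine synthesis, read 12.73, 11.47 and 12.95 in the controls, 10.58, 10.94, 11.47 and 12.20 with SM, and 11.37, 11.26 and 10.95 with SM + MSTF. Its log2 difference from control was -1.09 with SM (adjusted p = 0.236) and -1.19 with SM + MSTF (adjusted p = 0.469), and the controls overlapped the SM arrays but none of the SM + MSTF arrays. Pycr1, of proline synthesis, lay the other way at 0.61 between SM and control (adjusted p = 0.281) and at -0.96 between SM + MSTF and SM (adjusted p = 0.131), and its dimmer probe gave -0.60 and -0.52. Shmt2, which makes glycine in mitochondria, lay at -0.51 in SM + MSTF versus SM (adjusted p = 0.218). The others at an unadjusted p under 0.05 were Aldh18a1, of proline synthesis, at -0.50 and Psph, of serine synthesis, at -0.40 between SM and control (adjusted p = 0.284 and 0.161), and Cbs, of cysteine synthesis, at -0.45 between SM + MSTF and SM (adjusted p = 0.271). As with Asns, the controls differed among themselves for Phgdh, and control replicate 2 was the lowest of them for both genes.

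Of the amino acid transporters, 4 of 8 were tested, all 4 lower in SM than in control and all 4 higher in SM + MSTF than in SM. With each array left out in turn, these counts ran from 3 (without SM replicate 1) to 4 and from 2 (without SM + MSTF replicate 2) to 4. Slc38a2, a glutamine and alanine carrier induced by amino acid shortage, read 10.44, 10.49 and 10.41 in the controls, 9.99, 10.08, 10.22 and 10.59 with SM, and 10.64, 10.81 and 11.22 with SM + MSTF. Its SM + MSTF arrays lay above all others, and the log2 difference from SM was 0.67 (SE 0.17, unadjusted p = 0.00299, adjusted p = 0.105 by limma), with 0.50 on a second probe (adjusted p = 0.179). Of 11 aminoacyl-tRNA synthetases, 8 were lower in SM than in control, among them Cars1 at -0.25 and Mars1 at -0.21 (adjusted p = 0.295 and 0.283). Wars1, which is also induced by interferon, lay at 0.37 (adjusted p = 0.178). The count lower ran from 4 to 10 with each array left out. Without control replicate 3, 4 were lower and 7 higher, with a median of 0.04. In SM + MSTF versus SM, 10 of the 11 were higher, where 46.4% of all probes were, with a median of 0.10. With each array left out in turn, that count ran from 9 to 10 and the median from 0.05 to 0.12. None of the 11 had an unadjusted p under 0.05 by limma there, and both comparisons share the SM arrays.

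Heat shock proteins of the cytosol and mitochondria were measured as a neighbouring response and gave the only called probes among the genes named here. By the brightest probe, Hspa8, the constitutive cytosolic HSP70, lay at -0.46 in SM versus control (adjusted p = 0.180 by limma) and 0.73 between SM + MSTF and SM (adjusted p = 0.0627), and was not called. Its 3 other probes were singled out after their values were seen. They rose in SM + MSTF over SM by 0.82, 0.94 and 1.17 on the log2 scale (adjusted p = 0.0457, 0.0247 and 0.0256), and the probe at 1.17 fell in SM versus control by 1.13 on the log2 scale (adjusted p = 0.0250). On that probe the arrays read 7.69, 7.82 and 7.95 in the controls, 6.39, 6.64, 6.49 and 7.24 with SM, and 7.87, 7.61 and 8.10 with SM + MSTF, and the SM arrays lay below all others. Hspa8 has near-identical processed copies in rodent genomes, so its probes may read more than 1 transcript. Bag3, a co-chaperone of HSP70, lay at -0.55 between SM and control (adjusted p = 0.122) and 0.67 between SM + MSTF and SM (adjusted p = 0.0931), with its SM arrays below all others. Hspb1, the small heat shock protein HSP27, read 9.34, 9.26 and 9.22 in the controls and 10.25, 10.16, 9.58 and 10.20 with SM, a log2 difference of 0.78 (adjusted p = 0.153).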

How the data were processed

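Liver RNA of 10 rats was measured on one-colour Agilent arrays, 1 per rat. The authors read the spots with Feature Extraction 10.7 and deposited background-subtracted intensities, with a log2 value table of quantile-normalized signals as well. Here, control spots and those with a non-uniformity mark (0 to 4 on an array) were dropped, the intensities were quantile normalized in R 4.3.3, and log2 signals of the spots of each probe were averaged. Probes were named through RefSeq (GRCr8), which gave a name to 17512 of 41012. The 3 contrasts were tested in 1 fit with limma 3.58.1 over 22991 probes, with Benjamini-Hochberg adjustment, and called at an adjusted p under 0.05 and 1.5-fold. A gene's value is that of its probe of highest mean signal. Arrays have no read depth, and their number limits the precision. Groups and replicate numbers came from the labels, and each rat is 1 replicate. The members and lists were chosen with earlier results of these data known. The genes named from the lists are those called, up to 3 per list of largest difference at an unadjusted p under 0.05 in SM versus control, up to 2 likewise in SM + MSTF versus SM, and the sensors Ern1, Eif2ak3 and Atf6. The procedure was tested on simulated data. Alternatives tried were scaling to the 75th percentile, the deposited log2 table, normexp correction (offset 50) on median signals, 2 other filters, fits of only 2 groups, dropping the fold minimum, the methods' t-test, blocks for replicate number or slide, the mean over a gene's probes, and leaving out each array.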

Additional observations from a re-analysis of the deposited data

Results flagged for a closer look

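For the 35 probes of the members and named genes, the 4 SM arrays were examined for an array far from the other 3, a test that chance passes for about 1 in 20 groups. No member probe had such an array, and 2 other probes had, both on SM replicate 3. For Hsp90b1, SM replicate 3 read 13.76 where the other SM arrays read 13.20 to 13.27. For Hspb1, it read 9.58 where the others read 10.16 to 10.25. SM replicate 3 was also the highest of all 10 arrays for Hspa5 and Sdf2l1. The causes were not tested.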

How the results depend on the processing

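Under the alternatives each gene had 1 value, that of its brightest probe except where its probes were averaged. Against control, no member was called in either treated group under any alternative run. In SM + MSTF versus SM the count of members called was 0 to 1 with each array left out (1, Herpud1, without SM + MSTF replicate 1, at 1.00 and adjusted p = 0.0321) and 1 (Herpud1) by the methods' t-test. The counts over the pathway lists, added to the alternatives after the data were seen, were 3 (Mthfd2, Pycr1, Hspb1), 1 (Cebpb) and 4 (Pycr1, Slc38a2, Hspa8, Bag3) by that t-test unadjusted for SM against control, SM + MSTF against control and SM + MSTF against SM. With each array left out they were 0 to 1, 0 and 0 to 1 (Hspb1 in SM versus control without SM + MSTF replicate 3, and in SM + MSTF versus SM Hspa8 without SM replicate 4 or Bag3 without SM + MSTF replicate 3), and with the mean over a gene's probes the last was 1 (Hspa8). The median of the chaperone arm in SM + MSTF versus control ranged from 0.068 to 0.50 with each array left out, and that of the ATF4 arm from -0.11 (without SM + MSTF replicate 2) to 0.46. With each array left out, signs turned for Dnajb9 (-0.032 to 0.034), Chac1 (-0.79 to 0.31) and Atf4 (-0.0045 to 0.29) in SM versus control, for Hspa5 (-0.25 to 0.086), Sdf2l1 (-0.057 to 0.36), Ddit3 (-0.12 to 0.23) and Chac1 (-0.11 to 1.22) in SM + MSTF versus control, and for Sdf2l1 (-0.35 to 0.061) and Asns (-0.28 to 0.20) in SM + MSTF versus SM. The sign of Asns in SM + MSTF versus SM turned with normexp (0.011) and that of Dnajb9 in SM versus control with the mean over its probes (-0.22).

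With the replicate number as a block, Atf4 lay at -0.0045 in SM versus control and Asns at 0.20 in SM + MSTF versus SM, and no member call changed. Number 4 occurs only in the SM group, so this block takes SM replicate 4 out of the comparisons. Both values are those found on leaving that array out. The replicate numbers do not pair the arrays: correlations of same-numbered deviations were -0.10 to 0.17. A random block for the slide put Dnajb9 at -0.0066 in SM versus control. The slide as a fixed block could be fitted only for SM + MSTF versus control, where it rests on 1 treated rat. Chac1 then lay at -0.20, and 158 probes of the whole array were called where 0 were without it, none of them a member. Over the whole array, calls in SM versus control numbered 553, and 85 under that random block. With 3 or 4 rats per group, the interval of Chac1 reaches beyond 1.5-fold on both sides in the comparisons with control, and that of Asns in SM + MSTF versus SM.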
